A study of Mus musculus with 6 samples.

Results

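Genes of electroneutral salt absorption, 10 in number, were followed in the descending colon of Muc2-/- and wild-type mice. They are the anion exchanger and transporter genes Slc26a3, Slc26a6 and Slc26a2, the sodium/proton exchanger genes Slc9a3 and Slc9a2, the sodium-bicarbonate cotransporter gene Slc4a4, and the carbonic anhydrase genes Car1, Car2, Car4 and Car12. They were taken by gene symbol, 10 of the 55849 genes in the deposited tables, and all 10 were among the 16107 genes with enough counts to be tested. Polyadenylated RNA was sequenced with paired-end reads in 6 libraries, 3 from Muc2-/- mice and 3 from wild-type C57BL/6 mice. The animals were 12 weeks old and received no treatment. Muc2 encodes the gel-forming mucin of colonic mucus, and its loss in mice serves to model long-standing colitis. The labels give neither the Muc2 allele nor the background strain of the mutants, and how many animals went into each replicate is not stated. The p-values therefore measure the spread between these libraries, which may be technical. The sample titles speak of crypts, the protocols of colon tissue.

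In the colon, sodium and chloride are absorbed together by exchangers that sit side by side in the apical membrane of surface colonocytes. A sodium/proton exchanger takes up sodium for a proton, and a chloride/bicarbonate exchanger takes up chloride for bicarbonate. Carbonic anhydrases hydrate carbon dioxide inside and outside the cell and so supply both the proton and the bicarbonate. No net charge moves, which gives the process its name, and water follows the salt.

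The libraries held 16627761 to 17465636 counts in Muc2-/- colon and 16395432 to 20336459 counts in wild-type colon. Levels are given as CPM, counts relative to library size after trimmed-mean (TMM) correction, or, between genes, as the deposited FPKM, which are per length. Muc2 had 757, 1021 and 942 CPM in Muc2-/- colon, against 2480, 6977 and 2629 CPM in wild-type colon. It was thus 4.44-fold lower in the Muc2-/- libraries, with no overlap, but reads over the gene remained, and which part of it is deleted is not stated in the labels. Its adjusted p was 0.103 in edgeR's quasi-likelihood test. Tissue markers moved with genotype. The summed level of 11 smooth muscle markers was 2783 to 5017 CPM in Muc2-/- colon and 6592 to 23366 CPM in wild-type colon, and that of 10 epithelial markers was 28636 to 43364 CPM in Muc2-/- colon and 12086 to 23566 CPM in wild-type colon. Des, the muscle filament gene and highest of the muscle markers by the mean of all 6 libraries, averaged 970.2 ± 404 CPM in Muc2-/- colon and 2761 ± 1710.2 CPM in wild-type colon (SD, n = 3 each). All 11 and all 10 markers were detected, the groups did not overlap in either sum, and each gave an exact permutation p of 0.1, the smallest that 3 against 3 libraries allow. In such bulk RNA, fewer cells of a type and less RNA per cell cannot be told apart.

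None of the 10 genes passed the test across all genes (edgeR, Benjamini-Hochberg adjusted p under 0.05), in either direction. The background was low as well: 0.124% of all tested genes passed, 0.106% as higher and 0.0186% as lower in Muc2-/- colon. At an unadjusted edgeR p under 0.05, 1 of the 10 was lower and 0 were higher, against 12.7% and 8.23% of all tested genes, or 21% in either direction. DESeq2 called 1 of the 10 lower and 0 higher, where it called 6.59% of the genes to which it gave an adjusted p lower and 3.23% higher. Limma-voom called 0 of the 10, and of all genes 0.0124% lower and 0.0683% higher. The log2 fold change, Muc2-/- over wild-type, was below 0 for 9 of the 10, against 50.9% of all tested genes, and its median was -0.40 over the 10 and -0.01 over all. Of the 10, 1 separated by group, Slc26a3, whose 3 Muc2-/- libraries all lay below its 3 wild-type libraries. That share was no larger than over all genes. Of these, 15.2% separated that way, 13.3% the opposite way and 28.5% in either direction.

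**Figure D1:**
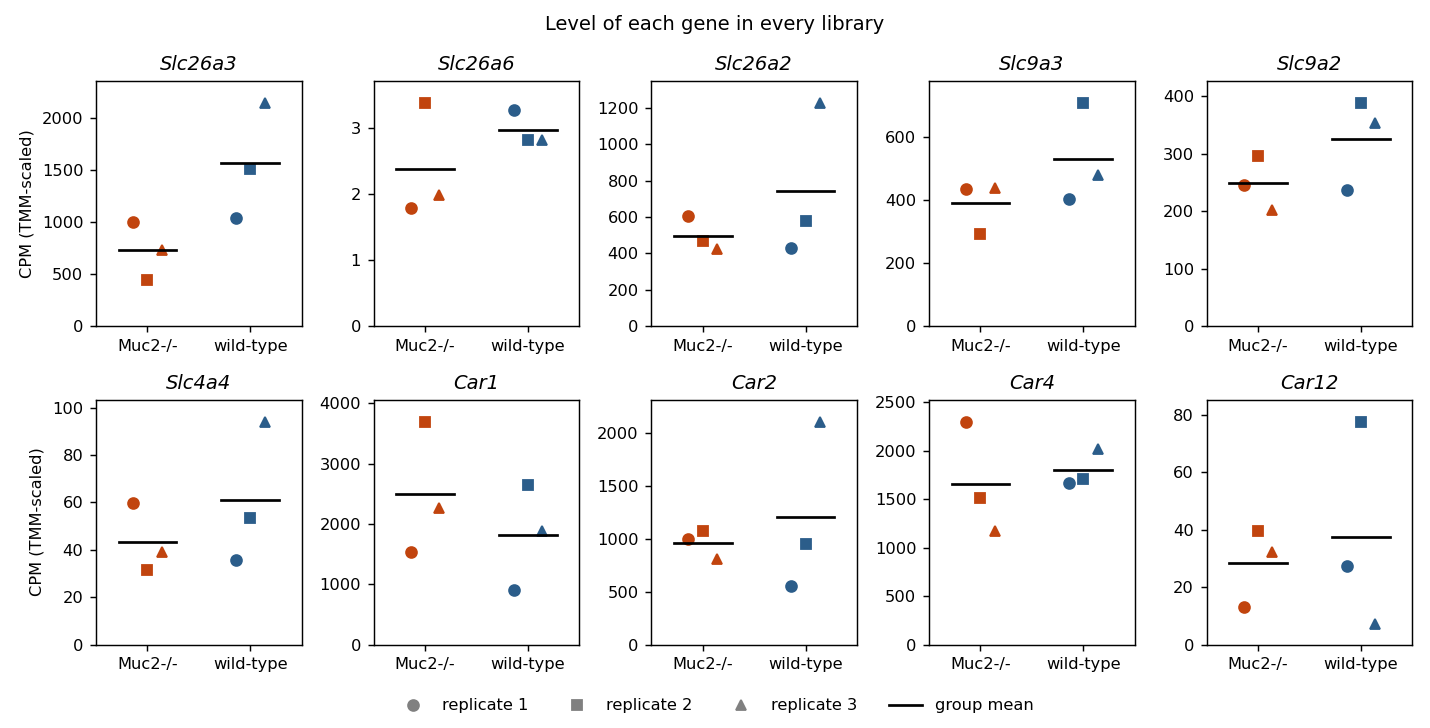
Level of each gene in every library, in TMM-scaled CPM on linear axes from 0, one panel per gene. Each point is a library, its shape the replicate number, and each bar is the mean of 3 libraries. The groups separate for Slc26a3 alone, and the highest wild-type point of Slc26a3, Slc26a2, Slc4a4, Car2 and Car4 is replicate 3 each time.

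Slc26a3 (ENSMUSG00000001225), on the plus strand of chromosome 12 at 31440870 to 31523916 in the count table's coordinates, encodes the apical chloride/bicarbonate exchanger of the colon. Loss of its human counterpart causes congenital chloride diarrhoea. It had 1004, 443 and 734 CPM in Muc2-/- replicates 1, 2 and 3, against 1040, 1513 and 2143 CPM in wild-type replicates 1, 2 and 3. All Muc2-/- values were lower than all wild-type values, but Muc2-/- replicate 1 came within a few percent of wild-type replicate 1. The means were 727 ± 281 CPM in Muc2-/- colon and 1565 ± 554 CPM in wild-type colon (SD, n = 3 each), 2.15-fold lower in Muc2-/-. The log2 fold change was -1.11 (SE 0.40, 95% interval -2.02 to -0.19), with an unadjusted edgeR p of 0.0238 and an adjusted p of 0.172. DESeq2 gave the same size, -1.10 (SE 0.38), and an adjusted p of 0.0432, the one alternative of those run in which the gene passed. Over the other alternatives its adjusted p lay between 0.119 and 0.970, the highest with a smooth muscle score as covariate, where the log2 fold change was -1.73. Leaving out each library in turn kept the log2 fold change negative, between -1.41 without Muc2-/- replicate 1 and -0.80 without wild-type replicate 3. The unadjusted p was above 0.05 without Muc2-/- replicate 2 (0.0688), without Muc2-/- replicate 3 (0.0645) and without wild-type replicate 3 (0.0785), all from edgeR. Its highest libraries, Muc2-/- replicate 1 and wild-type replicate 3, were also the highest of their groups in the summed level of posterior colon Hox genes, whose part in the result was not tested. That sum was mostly Hoxb13, and Hoxd12 was highest in wild-type replicate 1 instead.

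**Figure D2:**
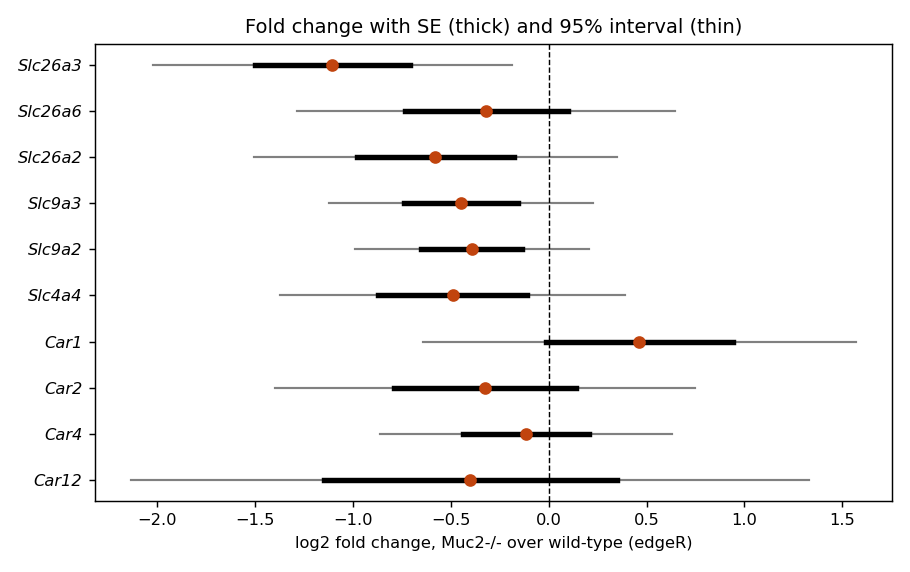
Log2 fold change of each gene, Muc2-/- over wild-type, from edgeR's fit of all 6 libraries. Points are estimates, thick bars 1 SE either side and thin bars the 95% interval, and the dashed line is no change. Slc26a3, at -1.11, is the only gene whose interval does not reach 0, and Car1, at 0.46, the only one right of the line.

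The promoters of the main chloride and sodium exchangers, Slc26a3 and Slc9a3, are shown because this pair is held to be the main route of coupled salt uptake. Each stretch runs from 250 bases before to 50 bases after the RefSeq start, in the GRCm38.p6 assembly, and lies on the plus strand at chr12:31437969-31438268 for Slc26a3 and chr13:74121163-74121462 for Slc9a3. Capitals mark matches to 6 motifs searched on both strands, which were TATAAA for the TATA box, GTTAAT for part of an HNF1 site, TTTATNG for a CDX site, AGATAA for a GATA site, CAAAGT for part of an HNF4 site and GGGCGG for the GC box.
Slc26a3 promoter: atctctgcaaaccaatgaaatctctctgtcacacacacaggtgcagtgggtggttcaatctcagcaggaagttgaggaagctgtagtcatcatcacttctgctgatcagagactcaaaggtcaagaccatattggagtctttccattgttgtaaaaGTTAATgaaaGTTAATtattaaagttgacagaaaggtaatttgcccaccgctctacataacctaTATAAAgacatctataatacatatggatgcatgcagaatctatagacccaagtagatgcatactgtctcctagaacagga
Slc9a3 promoter: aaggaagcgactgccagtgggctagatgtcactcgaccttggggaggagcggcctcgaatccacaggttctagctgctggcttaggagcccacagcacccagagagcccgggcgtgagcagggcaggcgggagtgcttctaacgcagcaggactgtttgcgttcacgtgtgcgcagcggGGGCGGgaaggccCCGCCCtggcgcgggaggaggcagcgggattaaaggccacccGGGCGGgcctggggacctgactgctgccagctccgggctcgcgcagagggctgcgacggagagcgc
The Slc26a3 promoter held GTTAAT at positions -94 to -89 and -84 to -79 and TATAAA at -30 to -25 relative to the start, and was 39.3% G and C. Of 32851 promoters of the same length, 7.1% held GTTAAT, 0.548% held it at least 2 times, 13.6% held TATAAA, and 1.75% had TATAAA starting between -35 and -25 on the gene's strand. The Slc9a3 promoter held no TATAAA and no GTTAAT. It held GGGCGG 3 times, at -71 to -66, at -58 to -53 on the minus strand and at -16 to -11, and was 68.7% G and C with 25 CpG pairs, against 1 CpG pair in the Slc26a3 promoter. GGGCGG was found in 35.7% of all promoters, and at least 3 times in 10.7%. Matches are descriptions of letters, not of bound sites. Of the 10 genes, 6 had a promoter in the table (Slc26a3, Slc26a6, Slc9a3, Slc4a4, Car4 and Car12), and GTTAAT was found in the Slc26a3 promoter only.

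Slc26a6, on chromosome 9 at 108730482 to 108742117, encodes an apical exchanger of chloride, bicarbonate and oxalate that is best known from the small intestine and kidney. It was the least abundant of the 10. Its counts were 30, 51 and 32 in Muc2-/- replicates 1, 2 and 3, against 59, 54 and 59 in wild-type replicates 1, 2 and 3, or 1.79, 3.37 and 1.98 CPM against 3.27, 2.81 and 2.81 CPM. Muc2-/- replicate 2 was the highest of the 6, so the groups overlapped. Its log2 fold change was -0.32 (SE 0.42, 95% interval -1.29 to 0.65; edgeR adjusted p = 0.701), and at this depth a change of the size seen for Slc26a3 lay within that interval. The value ranged from -0.63 without Muc2-/- replicate 2 to -0.14 without Muc2-/- replicate 1.

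Slc26a2, on chromosome 18 at 61325991 to 61344684, encodes a sulfate transporter that also exchanges chloride. It had 604, 467 and 421 CPM in Muc2-/- replicates 1, 2 and 3, against 429.6, 576 and 1225 CPM in wild-type replicates 1, 2 and 3. The Muc2-/- values lay around those of wild-type replicates 1 and 2, and wild-type replicate 3 stood far above the rest. The log2 fold change was -0.58 (SE 0.40, 95% interval -1.51 to 0.35; edgeR adjusted p = 0.444), and without wild-type replicate 3 it was -0.01.

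Slc9a3, on chromosome 13 at 74269576 to 74317561, encodes NHE3, the main apical sodium/proton exchanger of the gut. It had 436, 291 and 439.6 CPM in Muc2-/- replicates 1, 2 and 3, against 403, 707 and 481 CPM in wild-type replicates 1, 2 and 3. Its means were 389 ± 84.6 CPM in Muc2-/- colon and 530.3 ± 158 CPM in wild-type colon (SD, n = 3 each). The wild-type range took in 2 of the 3 Muc2-/- libraries. The log2 fold change of Slc9a3 was -0.45 (SE 0.29, 95% interval -1.12 to 0.23; edgeR adjusted p = 0.416). It was -0.25 without Muc2-/- replicate 2 and -0.19 without wild-type replicate 2.

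Slc9a2, on chromosome 1 at 40719734 to 40808433, encodes NHE2, a second apical sodium/proton exchanger of the colon. It had 246, 296 and 202 CPM in Muc2-/- replicates 1, 2 and 3, against 237, 388 and 353 CPM in wild-type replicates 1, 2 and 3. On the log2 scale the fold change was -0.39 (SE 0.26, 95% interval -0.99 to 0.20; edgeR adjusted p = 0.42), and the groups overlapped through wild-type replicate 1. It was -0.25 without Muc2-/- replicate 3 and also without wild-type replicate 2.

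Slc4a4, on chromosome 5 at 89034345 to 89387512, encodes NBCe1, which carries sodium and bicarbonate across the basolateral membrane. It had 59.8, 31.6 and 38.9 CPM in Muc2-/- replicates 1, 2 and 3, against 35.8, 53.3 and 94.0 CPM in wild-type replicates 1, 2 and 3. Its log2 fold change was -0.49 (SE 0.38, 95% interval -1.37 to 0.39; edgeR adjusted p = 0.497). As with Slc26a2, it was near 0 without wild-type replicate 3, at -0.03.

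Of the 4 carbonic anhydrases, 1 had a positive fold change and 3 had negative ones, with intervals that all reached 0. Car1, on the minus strand of chromosome 3 at 14831276 to 14873428, encodes the cytosolic enzyme that is abundant in colonocytes and in red cells. It had 1538, 3695 and 2267 CPM in Muc2-/- replicates 1, 2 and 3, against 909, 2644 and 1888 CPM in wild-type replicates 1, 2 and 3. The spread within each group was larger than the distance between the group means of 2499.8 ± 1097 CPM in Muc2-/- colon and 1814 ± 869.99 CPM in wild-type colon (SD, n = 3 each). The log2 fold change of Car1 was 0.46 (SE 0.48, 95% interval -0.65 to 1.57; edgeR adjusted p = 0.618). It was 0.09 without Muc2-/- replicate 2, 0.14 without wild-type replicate 1 and 0.84 without wild-type replicate 2. Red cell RNA was scarce in every library. The 7 red cell markers in the table, of 8 listed, summed to 9.09 to 42.5 CPM in Muc2-/- colon and 5.87 to 15.4 CPM in wild-type colon, and Hbb-bs, a beta-globin gene and the highest of them, averaged 10.7 ± 9.76 CPM in Muc2-/- colon and 4.43 ± 3.24 CPM in wild-type colon (SD, n = 3 each).

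Car2, on chromosome 3 at 14951333 to 14965830, encodes a second cytosolic enzyme. It had 999, 1068 and 809 CPM in Muc2-/- replicates 1, 2 and 3, against 554, 948 and 2101 CPM in wild-type replicates 1, 2 and 3. The wild-type values enclosed all Muc2-/- values. Its log2 fold change was -0.33 (SE 0.46, 95% interval -1.40 to 0.75; edgeR adjusted p = 0.729), and without wild-type replicate 3 its sign turned, to 0.36.

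Car4, on chromosome 11 at 84848612 to 84856870, encodes the enzyme that is anchored to the outer face of the apical membrane. It had 2297, 1506 and 1174 CPM in Muc2-/- replicates 1, 2 and 3, against 1669, 1705 and 2016 CPM in wild-type replicates 1, 2 and 3. The wild-type values lay inside the Muc2-/- range. In the fit, the log2 fold change was -0.12 (SE 0.32, 95% interval -0.86 to 0.63; edgeR adjusted p = 0.871), and without Muc2-/- replicate 3 it was 0.10.

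Car12, on chromosome 9 at 66620968 to 66674127, encodes a transmembrane enzyme with its active site outside the cell. It had 13.2, 39.4 and 32.3 CPM in Muc2-/- replicates 1, 2 and 3, against 27.3, 77.6 and 7.30 CPM in wild-type replicates 1, 2 and 3. The wild-type libraries alone spanned 10.6-fold. In the fit, the log2 fold change was -0.40 (SE 0.75, 95% interval -2.13 to 1.33; edgeR adjusted p = 0.801), and its sign was positive, at 0.71, without wild-type replicate 2.

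**Figure D3:**
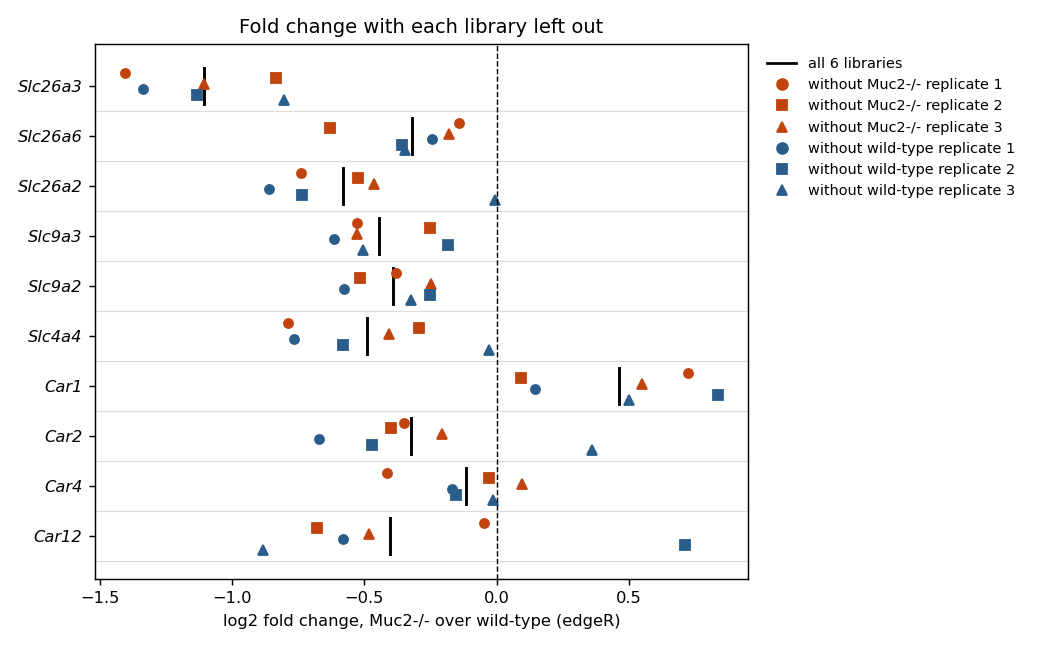
Log2 fold change of each gene, Muc2-/- over wild-type, from edgeR's fit with each library left out in turn, beside the value from all 6 libraries (black bar). Colour and shape give the library left out. All 6 values of Slc26a3 lie between -1.41 and -0.80, whereas Car2, Car4 and Car12 cross 0, and Slc26a2 and Slc4a4 come to -0.01 and -0.03 without wild-type replicate 3.

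Per length, the order of the 10 genes by mean FPKM was the same in Muc2-/- and in wild-type colon. It ran Car1, Car4, Car2, Slc26a3, Slc9a3, Slc26a2, Slc9a2, Slc4a4, Car12, Slc26a6. Car1 averaged 2020.3 ± 913 FPKM in Muc2-/- colon and 1443 ± 694 FPKM in wild-type colon (SD, n = 3 each), and ranked 20 among all genes by mean FPKM. Car4 ranked 46 and Car2 124, Slc26a3 341 and Slc9a3 725, and Slc26a6 14936. In Muc2-/- colon the ranges of neighbours in this order overlapped for Slc26a3 and Slc9a3, for Slc26a2 and Slc9a2, and for Slc4a4 and Car12. In wild-type colon they overlapped for those last 2 pairs, and also for Car1 and Car4, Car4 and Car2, Car2 and Slc26a3, and Slc9a3 and Slc26a2. Slc26a3 and Slc9a3 were thus apart in wild-type colon, at 158 to 342 FPKM for Slc26a3 and 71.0 to 126 FPKM for Slc9a3, and overlapped in Muc2-/- colon, at 70.8 to 157 FPKM for Slc26a3 and 53.9 to 80.1 FPKM for Slc9a3.

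Among the FPKM sums, shares and ratios computed, only the share of Slc26a3 in the summed FPKM of the 6 transporters separated the groups. This share is not separate support, as Slc26a3 is the largest part of the sum and separated on its own. It was 48.3%, 33.8% and 44.0% in Muc2-/- replicates 1, 2 and 3, against 52.9%, 50.2% and 57.8% in wild-type replicates 1, 2 and 3. The means were 42.0% ± 7.45 in Muc2-/- colon and 53.6% ± 3.85 in wild-type colon, with an exact permutation p of 0.1 (SD, n = 3 each). The ratio of Slc26a3 to Slc9a3 was 1.99, 1.31 and 1.44 in Muc2-/- replicates 1, 2 and 3, against 2.23, 1.85 and 3.85 in wild-type replicates 1, 2 and 3, and overlapped (exact permutation p = 0.2). The ratio of the sodium exchangers, Slc9a3 to Slc9a2, averaged 2.09 ± 0.767 in Muc2-/- colon and 2.07 ± 0.303 in wild-type colon (SD, n = 3 each; exact permutation p = 1). Smallest possible p being 0.1, none of these single values could pass 0.05.

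Of the summed FPKM of the 4 carbonic anhydrases, Car1 made up 43.8%, 70.9% and 66.0% in Muc2-/- replicates 1, 2 and 3, against 40.3%, 62.5% and 44.4% in wild-type replicates 1, 2 and 3. The groups overlapped (exact permutation p = 0.3). Car2 was 10.6% to 14.6% in Muc2-/- colon and 11.6% to 25.5% in wild-type colon, Car4 was 18.4% to 41.5% in Muc2-/- colon and 25.6% to 46.9% in wild-type colon, and Car12 was at most 0.155% in Muc2-/- colon and 0.302% in wild-type colon. The sum itself was 2795, 4251 and 2758 FPKM in Muc2-/- replicates 1, 2 and 3, against 1755, 3333 and 3464 FPKM in wild-type replicates 1, 2 and 3 (exact permutation p = 0.6).

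**Figure D4:**
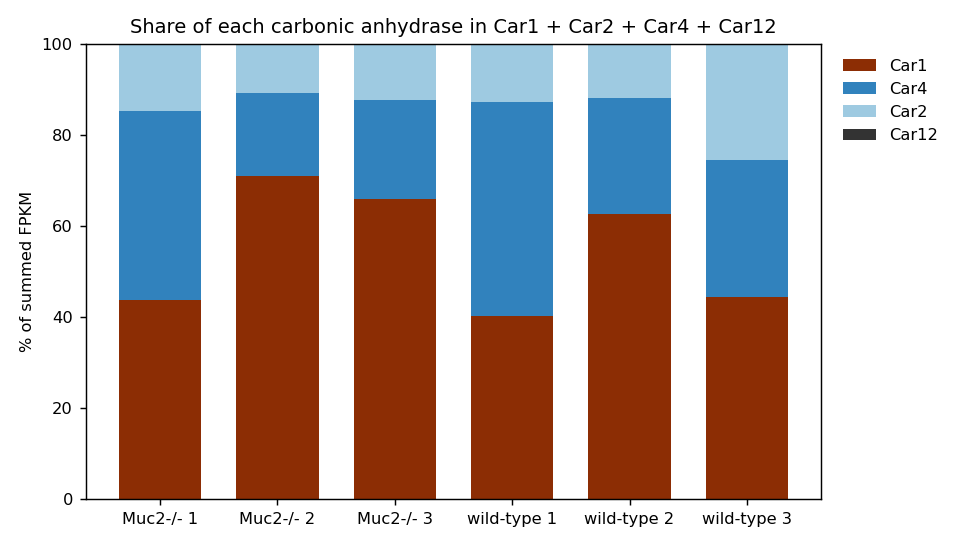
Share of Car1, Car4, Car2 and Car12 in their summed FPKM, as percent on a linear axis from 0 to 100, one bar per library. Car1 ranges from 40.3% to 70.9%, and the shares differ as much within a genotype as between them. Car12, at 0.302% or less, is too thin to be seen.

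The 10 genes are expressed by epithelial cells, whose markers were higher in the Muc2-/- libraries, so each was also set against the geometric mean of 10 epithelial markers such as Krt8, a keratin (11190 ± 2872 CPM in Muc2-/- colon and 5882 ± 2110 CPM in wild-type colon; SD, n = 3 each). These markers were 0.70 higher in Muc2-/- colon on the log2 scale, which moved most genes down: 90.1% of 15688 genes with no zero were lower on this scale, with a median difference of -0.72. All 10 genes were below 0 as well, with a median of -1.08. Car1 (-0.20) and Car12 (-0.66) fell less than the median of all genes. Of the 10, 7 were lower without overlap between the groups. Over all tested genes, 48.7% separated in that direction and 1.6% in the other. The 7 were the 6 transporters and Car2. Slc26a3 stood at -0.58, -2.33 and -1.17 in Muc2-/- replicates 1, 2 and 3, against 0.36, 0.27 and 0.76 in wild-type replicates 1, 2 and 3, all as log2 of its CPM over that mean. Its difference of -1.83 was the largest of the 10 (exact permutation p = 0.1) and stayed between -2.22 and -1.34 when any library was left out. Slc9a2 stood at -2.61, -2.91 and -3.03 in Muc2-/- replicates 1, 2 and 3, against -1.77, -1.69 and -1.84 in wild-type replicates 1, 2 and 3, a difference of -1.08 (exact permutation p = 0.1). Car1 differed least, by -0.20 (exact permutation p = 0.6).

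Surface colonocyte markers gave a smaller contrast. The 8 markers, all detected, summed to 15260.4 to 21392 CPM in Muc2-/- colon and 9395 to 14966 CPM in wild-type colon (exact permutation p = 0.1). Lypd8, an antibacterial surface protein gene and the highest of them, averaged 11487 ± 4539 CPM in Muc2-/- colon and 7534 ± 2523 CPM in wild-type colon (SD, n = 3 each). The list was not uniform, with 6 fold changes above 0 and 2 below. Aqp8, an apical water channel gene named after its values were seen, had 834, 831 and 554 CPM in Muc2-/- colon, against 1144, 1122 and 1147 CPM in wild-type colon (log2 fold change -0.62, edgeR adjusted p = 0.221). Set against the geometric mean of the 8 markers, 9 of the 10 genes were lower in Muc2-/- colon, as were 80.6% of 15688 genes with no zero. That mean, unlike the sum, overlapped between the groups. The median was -0.81 over the 10 and -0.45 over all genes, and Car12 (-0.39) and Car1 (0.07) lay above the latter. Slc9a3 (-0.86) and Slc9a2 (-0.81) did not overlap between the groups, where 14.2% of all tested genes separated in that direction and 1.82% in the other. Slc26a3 differed by -1.56 with overlap (exact permutation p = 0.2), through a near tie of Muc2-/- replicate 1 (1.848) and wild-type replicate 2 (1.846). Slc51a, named after its values were seen, weighs as much as any other marker in the geometric mean. It had 0.179, 3.90 and 0.865 CPM in Muc2-/- replicates 1, 2 and 3, against 0.277, 5.47 and 0.143 CPM in wild-type replicates 1, 2 and 3. The part of Slc51a in this overlap was not tested.

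**Figure D5:**
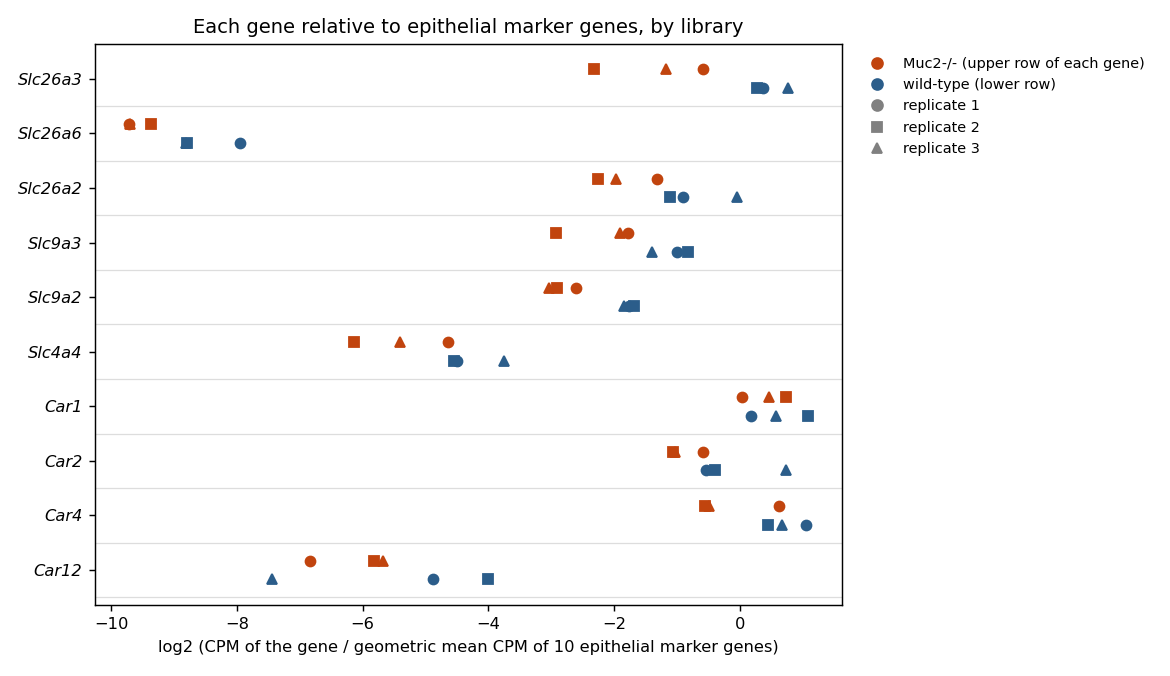
Each gene relative to 10 epithelial marker genes, as log2 of its CPM over their geometric mean, one point per library, with Muc2-/- libraries above wild-type libraries in each row. The 6 transporters and Car2 do not overlap between genotypes, where 48.7% of all tested genes separate in that direction. Slc26a3 shows the widest distance between group means, -1.83, and Car1, Car4 and Car12 overlap.

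Relatives of these genes were followed in lists of the same families and of the machinery around them. None of the lists had a member that passed edgeR's adjusted test. Of the 8 other Slc26 genes, 3 were testable, with a median log2 fold change of -0.88, and 0 passed at an unadjusted p under 0.05. The higher-expressed pair of these was Slc26a11, at 4.25 ± 1.48 CPM in Muc2-/- colon and 7.85 ± 2.15 CPM in wild-type colon, and Slc26a7, at 1.00 ± 0.705 CPM in Muc2-/- colon and 2.72 ± 2.87 CPM in wild-type colon (SD, n = 3 each). Of the 9 other Slc9 genes, 5 were testable and 0 passed unadjusted, with a median of 0.10. Slc9a8 averaged 40.4 ± 3.83 CPM in Muc2-/- colon and 42.8 ± 1.35 CPM in wild-type colon (SD, n = 3 each).

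Of the 9 other Slc4 bicarbonate transporters, 5 were testable, with a median of -0.13. At an unadjusted edgeR p under 0.05, 1 was higher and 2 were lower, against 8.23% and 12.7% of all tested genes. DESeq2 called 1 of them higher and 2 lower, where it called 3.23% of the genes with an adjusted p higher and 6.59% lower. The most abundant were Slc4a7, an electroneutral sodium-bicarbonate cotransporter, at 136 ± 9.84 CPM in Muc2-/- colon and 105 ± 27.1 CPM in wild-type colon, and Slc4a2, the basolateral chloride/bicarbonate exchanger, at 126 ± 22.0 CPM in Muc2-/- colon and 138 ± 34.1 CPM in wild-type colon (SD, n = 3 each). The 3 that moved, named after their values were seen, were less abundant, with group means of at most 18.3 CPM (Slc4a3 in wild-type colon). Slc4a11 had 3.16, 4.69 and 4.14 CPM in Muc2-/- colon, against 1.22, 0.261 and 0.477 CPM in wild-type colon (adjusted p = 0.103 in edgeR and 0.000675 in DESeq2). Slc4a3, a chloride/bicarbonate exchanger of excitable tissue, had 6.19, 1.52 and 3.03 CPM in Muc2-/- colon, against 29.6, 18.0 and 7.15 CPM in wild-type colon (adjusted p = 0.111 in edgeR and 0.00189 in DESeq2). Its wild-type values fall in the order of the smooth muscle markers, which summed to 23366, 13758 and 6592 CPM in wild-type replicates 1, 2 and 3. Its Muc2-/- values do not, as the markers summed to 5017, 4749 and 2783 CPM in Muc2-/- replicates 1, 2 and 3. The part of muscle or nerve RNA in the difference of Slc4a3 was not tested. Slc4a8, a sodium-driven chloride/bicarbonate exchanger, had 1.012, 0.727 and 1.17 CPM in Muc2-/- colon, against 6.87, 3.65 and 1.00 CPM in wild-type colon (adjusted p = 0.1699 in edgeR and 0.0475 in DESeq2).

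Of the 12 other carbonic anhydrases, 8 were testable, with a median log2 fold change of -0.11. At an unadjusted edgeR p under 0.05, 1 was higher and 2 were lower, against 8.23% and 12.7% of all tested genes. DESeq2 called 1 of them higher and 2 lower, against 3.23% and 6.59% of the genes to which it gave an adjusted p. The most abundant pair was higher in Muc2-/- colon without overlap, as were 13.3% of all tested genes. Car9, a transmembrane enzyme known as a target of hypoxia signalling, had 115, 117 and 104 CPM in Muc2-/- colon, against 46.2, 75.5 and 66.9 CPM in wild-type colon. Its log2 fold change was 0.83 (SE 0.22), with an adjusted p of 0.106 in edgeR and 0.0282 in DESeq2. Car13, a cytosolic enzyme whose gene lies beside Car1, Car3 and Car2 on chromosome 3, had 34.1, 30.6 and 35.6 CPM in Muc2-/- colon, against 14.9, 26.7 and 25.9 CPM in wild-type colon (edgeR adjusted p = 0.253). The pair that was lower, Car11 and Car14, named after their values were seen, was rare. Car11 had 1.13, 1.06 and 0.989 CPM in Muc2-/- colon, against 10.4, 6.57 and 3.34 CPM in wild-type colon (adjusted p = 0.0948 in edgeR and 4.8e-05 in DESeq2). Car14 had 0.179, 0.264 and 0.494 CPM in Muc2-/- colon, against 2.99, 2.97 and 1.19 CPM in wild-type colon (adjusted p = 0.103 in edgeR and 0.00255 in DESeq2). Car11 is best known from brain, and 7 markers of enteric neurons and glia, all detected, summed to 21.6 to 53.6 CPM in Muc2-/- colon and 54.1 to 229.6 CPM in wild-type colon. Uchl1, the highest of them, averaged 15.2 ± 6.82 CPM in Muc2-/- colon and 51.5 ± 30.9 CPM in wild-type colon (SD, n = 3 each). Their part in these differences was not tested.

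Of the scaffolds and regulators of Slc9a3, 11 were listed and 10 were testable. At an unadjusted edgeR p under 0.05, 0 were higher and 1 was lower, against 8.23% and 12.7% of all tested genes. The lower one was Slc9a3r2, which encodes the scaffold NHERF2 and was named after its values were seen, at 13.4, 16.9 and 13.9 CPM in Muc2-/- colon, against 27.3, 23.2 and 16.3 CPM in wild-type colon (edgeR adjusted p = 0.234). The median log2 fold change of the scaffolds was -0.06. Ezr, which encodes the actin linker ezrin, averaged 914 ± 395 CPM in Muc2-/- colon and 1019 ± 195 CPM in wild-type colon, and Chp1, a calcium-binding cofactor of sodium/proton exchangers, averaged 516 ± 12.7 CPM in Muc2-/- colon and 479 ± 125 CPM in wild-type colon (SD, n = 3 each). A list of 10 genes, headed basolateral sodium pump and potassium exit, also held Slc12a2, Clcn2 and the colonic proton/potassium pump gene Atp12a. All 10 were testable, with a median of 0.03. Unadjusted, 0 were higher and 2 were lower, against 8.23% and 12.7% of all tested genes. DESeq2 called 0 of them higher and 1 lower, where it called 3.23% of the genes with an adjusted p higher and 6.59% lower. Atp1b1 averaged 1644 ± 575 CPM in Muc2-/- colon and 1386 ± 751 CPM in wild-type colon (SD, n = 3 each). The lower pair, named after their values were seen, encode basolateral potassium channels and did not overlap between the groups. Of all tested genes, 15.2% separated in that direction. Kcnn4 had 45.4, 51.8 and 49.9 CPM in Muc2-/- colon, against 66.5, 82.0 and 78.5 CPM in wild-type colon (edgeR adjusted p = 0.11). Kcnq1 had 34.8, 23.4 and 30.3 CPM in Muc2-/- colon, against 47.9, 55.1 and 75.6 CPM in wild-type colon (adjusted p = 0.103 in edgeR and 0.0166 in DESeq2). Of 5 genes of short-chain fatty acid uptake, 4 were testable, 0 passed unadjusted and the median was 0.35. Bsg, the chaperone of the lactate and butyrate carriers, averaged 1208 ± 299.8 CPM in Muc2-/- colon and 853 ± 140.2 CPM in wild-type colon, and Slc16a1, the carrier itself, averaged 354 ± 112 CPM in Muc2-/- colon and 278 ± 87.0 CPM in wild-type colon (SD, n = 3 each).

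Likeness of profiles was measured as the root mean square distance between centred log2 CPM over the 6 libraries, over 10915 protein-coding genes that averaged 5 CPM or more. Nearest to Slc26a3 were Usp2 (0.152), Gstm3 (0.172) and Ces2c (0.178), where the median gene lay at 0.806. Nearest to Slc9a3 were Snrk (0.121), Gpatch2 (0.129) and Eef1akmt4 (0.139), and nearest to Slc9a2 were Cbs (0.104), Galnt6 (0.106) and Kbtbd11 (0.107). For Slc26a2 they were Smim24 (0.152), Wfdc2 (0.158) and Klk1 (0.173), and for Car2 Smim24 again (0.143), Slc25a34 (0.176) and Slc5a1 (0.179). For Slc4a4 they were Tom1 (0.125), Papss1 (0.161) and Ugt2b34 (0.174), for Car1 Ethe1 (0.204), Id3 (0.205) and Slc25a13 (0.216), and for Car4 Cited4 (0.108), Cfap20 (0.121) and Ppt2 (0.124). Nearest to Car12 were Kcnh3 (0.354), Slc3a1 (0.359) and Ncoa7 (0.397), where its median gene lay at 1.15. Among the 10 genes, the closest pairs were Slc26a2 and Slc4a4 (0.186) and Slc26a2 and Car2 (0.250), and the farthest was Slc26a3 and Car12 (1.53). Slc26a3, Slc26a2, Slc4a4 and Car2 were each highest in wild-type replicate 3, where Car12 was lowest.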

How the data were processed

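The deposited counts per gene are whole numbers, not normalized, per the file headers and values. The deposited FPKM could be rebuilt here from those counts, the listed gene lengths, the library totals and a factor of 0.860 to 1.14 per library. The submitters' processing notes list mm10, featureCounts 1.5.0-p3, HISAT2 2.0.5, DESeq2 1.20.0 and StringTie 1.3.3b. None of the 10 genes had the start and end of GENCODE M21 (GRCm38), 8 had the same width, so gene coordinates are those of the count table, whose assembly is unsettled. How counting used strand was not given in the sources used here. Rows without a symbol (1834, with gene or locus identifiers) held 0.144% to 0.192% of counts and were kept.

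Counts from all 6 libraries were fitted with genotype alone in edgeR 4.0.16 (R 4.3.3, statmod 1.5.0): TMM factors, a minimum count of 10 and total of 15, quasi-likelihood tests, Benjamini-Hochberg adjustment over 16107 genes. The procedure was tested on simulated data. Single values were compared by exact two-sided permutation over 20 arrangements. Log2 CPM used a prior count of 2. Replicates differed beyond sampling noise (chi-square per degree of freedom 25.0 or more). Alternatives included DESeq2 1.42.0 and limma 3.58.1. Groups and replicate numbers came from the sample titles.

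Members and lists were chosen with earlier results of these data known. Named were all 10 members, Muc2, up to 4 called genes per pathway list (failing these, the 2 most abundant), the highest marker of each cell type, and the 3 nearest profiles of each member with a mean of at least 5 CPM. The genes listed as overlapping Slc26a3, Slc9a2 or Car1 had group means of at most 0.0954 CPM. Results for some genes that this rule names are not reported here. Promoters are from RefSeq.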

Additional observations from a re-analysis of the deposited data

How the results depend on the processing

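The signs of Slc26a3, Slc26a6, Slc26a2, Slc9a3, Slc9a2 and Slc4a4 held under every alternative run on them. Of the recomputed fold changes of the 10 genes, 201 kept their direction and side of the threshold, 1 moved past it (Slc26a3 in DESeq2) and 7 reversed. Car12 became 0.0475 with limma-voom, 0.0429 on log2(FPKM + 0.1), 0.95 with a smooth muscle score as covariate and ranged from -0.88 without wild-type replicate 3 to 0.71 without wild-type replicate 2. Car1 became -0.0767 with the covariate. Car4 ranged from -0.42 without Muc2-/- replicate 1 to 0.10 without Muc2-/- replicate 3, and Car2 from -0.67 without wild-type replicate 1 to 0.36 without wild-type replicate 3. The cause was not tested.

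The counts of all genes called, 17 higher and 3 lower in edgeR, changed with most settings. They were 22 and 5 with RLE factors, 7 and 1 with no composition factors, 384 and 815 with no filter, 614 and 1253 with DESeq2 (1 of the 10 lower), 3 and 0 on log2(FPKM + 1), 4 and 0 on log2(FPKM + 0.1), and 37 and 9 on log2(FPKM + 1) with a minimum of 1 FPKM in 3 libraries, where Slc26a6 had no value. Limma-voom called 11 higher, and 10 were higher without mitochondrial and immune receptor genes. An adjusted p under 0.01, or the smooth muscle covariate, left 0 and 0. The covariate does not overlap between the genotypes, and with it the log2 fold change was -1.73 for Slc26a3, -1.42 for Slc26a2, -1.25 for Slc4a4 and -1.40 for Car2. Leaving out each library gave 0 to 272 higher and 0 to 954 lower, the highest pair without wild-type replicate 3.

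With the replicate number as a block, 225 genes were higher and 448 lower, and none of the 10 passed. Deviations of same-numbered libraries correlated at 0.0937, 0.281 and 0.0606, and not every library was nearest to its own number, so the numbers are not taken as pairs.

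By mean log2 CPM, surface colonocyte markers were 0.43 higher in Muc2-/- colon where epithelial markers were 0.70 higher, which shifts all 10 genes alike (Slc9a2 to -0.81). The surface mean overlapped between the groups. It was 8.12, 8.714 and 8.43 in Muc2-/- replicates 1, 2 and 3, against 7.52, 8.717 and 7.74 in wild-type replicates 1, 2 and 3. Against the surface markers 2 of the 7 separations remained, those of Slc9a3 and Slc9a2, where 14.2% of all tested genes separated in that direction. That of Slc26a3 gave way to a near tie, 1.848 in Muc2-/- replicate 1 against 1.846 in wild-type replicate 2. Slc51a, a marker in that mean, had only 3 to 105 counts per library, and its part in the tie was not tested. The 3 libraries a group limit what can be called. Slc26a6, at 30 to 59 counts, also has low depth.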

Other observations

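Position along the colon was read from 4 of 5 listed posterior colon genes, the Hox genes found in the table. They summed to 619.7, 403 and 446 CPM in Muc2-/- replicates 1, 2 and 3, against 336, 261 and 811 CPM in wild-type replicates 1, 2 and 3 (exact permutation p = 1). Hoxb13, the highest of them, averaged 409.8 ± 103 CPM in Muc2-/- colon and 371 ± 260.3 CPM in wild-type colon (SD, n = 3 each). The highest library of each group, Muc2-/- replicate 1 and wild-type replicate 3, was also the highest of its group for Slc26a3, Slc26a2, Slc4a4 and Car4. The other posterior genes had negative log2 fold changes, -0.12 for Hoxa13, -0.54 for Hoxd13 and -2.90 for Hoxd12, against 0.14 for Hoxb13. Hoxd12, named like the other three after its values were seen, had 0.834, 0 and 0.247 CPM in Muc2-/- replicates 1, 2 and 3, against 5.93, 1.15 and 1.29 CPM in wild-type replicates 1, 2 and 3 (adjusted p = 0.199 in edgeR and 0.0384 in DESeq2). Atp12a, the colonic proton/potassium pump gene, named after its values were seen, had 949.7, 211 and 491 CPM in Muc2-/- replicates 1, 2 and 3, against 218, 127 and 1263 CPM in wild-type replicates 1, 2 and 3, highest in the same libraries. The part of sampling position in the values of Slc26a3, Slc26a2, Slc4a4 and Car4 was not tested.

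Other marker lists gave these summed levels. Goblet cell markers, 6 of 6 detected, summed to 24669, 22657 and 16107 CPM in Muc2-/- replicates 1, 2 and 3, against 1992, 2509 and 16878 CPM in wild-type replicates 1, 2 and 3 (exact permutation p = 0.2). Wild-type replicate 3, far above the other wild-type libraries here, is also the one without which the fold changes of Slc26a2 and Slc4a4 came near 0 and that of Car2 reversed, and the part of this in those values was not tested. Zg16 averaged 9727 ± 2685 CPM in Muc2-/- colon and 1765 ± 2767 CPM in wild-type colon (SD, n = 3 each). Leukocyte markers had 147 to 501 CPM in Muc2-/- colon and 108 to 328 CPM in wild-type colon (exact permutation p = 0.3), Lyz2 averaged 157 ± 45.7 CPM in Muc2-/- colon and 142 ± 92.9 CPM in wild-type colon (SD, n = 3 each), whereas Itgam, S100a8 and S100a9, named after their values were seen, were higher in DESeq2 (adjusted p = 0.0169, 2.5e-05 and 0.000271). S100a9 had 333, 11 and 1308 counts in Muc2-/- replicates 1, 2 and 3, against 0 counts in every wild-type library, and its edgeR adjusted p was 0.103. Endothelial markers had 34.7 to 44.7 CPM in Muc2-/- colon and 47.3 to 64.9 CPM in wild-type colon (exact permutation p = 0.1), with Pecam1 at 14.1 ± 3.31 CPM in Muc2-/- colon and 22.4 ± 3.98 CPM in wild-type colon (SD, n = 3 each). Fibroblast markers had 559 to 754 CPM in Muc2-/- colon and 620.2 to 1232 CPM in wild-type colon (exact permutation p = 0.3), with Col3a1 at 271 ± 47.4 CPM in Muc2-/- colon and 318 ± 91.8 CPM in wild-type colon (SD, n = 3 each). Mitochondrially encoded genes took 3.50%, 1.04% and 3.30% of counts in Muc2-/- replicates 1, 2 and 3, against 8.98%, 5.30% and 3.49% in wild-type replicates 1, 2 and 3 (exact permutation p = 0.2).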
